A study of Mus musculus with 6 samples.

Results

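Arg1, Arg2, Nos2, Odc1, Ass1, Asl, Slc7a1, Slc7a2, Ido1 and Sat1 were taken by symbol from the gene tables of a study of mouse mammary tumors, and these genes of arginine use and immune suppression are 10 of the 55385 genes listed. All of the samples came from female mice that carried the MMTV-NeuT transgene, a constitutively active rat ErbB2, together with the FAT-ATTAC transgene, an FKBPv-caspase-8 fusion driven by the FABP4 promoter. AP20187 dimerizes that fusion, and injections of 0.4 mg/kg from 6 weeks of age partly remove mammary fat, which fibrotic tissue then replaces. The DMHCA group also received, from 8 weeks of age, a diet with 0.05% DMHCA (about 100 mg/kg), a synthetic agonist of the liver X receptors (LXR), nuclear receptors that respond to oxysterols. The treatment label of the control group names AP20187 and vehicle in a way that leaves unclear whether these mice received the dimerizer or its vehicle alone, whereas the study describes them as NeuT/ATTAC+AP mice. The labels name the tissue as mammary gland fibrosis, and the study describes tumors. The epithelial marker genes summed to between 3140 and 4816 in every sample as TPM, RSEM's abundance per gene length, which has the same total in each library.

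Arginine is taken up through the cationic amino acid transporters, made again from citrulline by argininosuccinate synthase and lyase, and broken down by arginase to ornithine and urea or by nitric oxide synthase to nitric oxide and citrulline. Ornithine decarboxylase then opens the polyamine pathway. Myeloid cells that express arginase or inducible nitric oxide synthase can deprive T cells of arginine, and cells that express indoleamine dioxygenase break down tryptophan, so that these enzymes are counted among the means of immune suppression in tumors.

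The comparison asks how RNA of these tumors differed with the LXR agonist. The 3 control libraries held 46358654 to 63420620 expected counts (RSEM's estimates of reads per gene) and the 3 DMHCA libraries 52330938 to 55539411. DMHCA libraries 1 and 3 were close to identical, with a biological coefficient of variation of 0.0327 against 0.376 to 0.579 for the other pairs within a group. They were therefore summed as 1 sample, called DMHCA 1+3, and n was 3 control and 2 DMHCA samples. The labels do not say that the samples came from separate mice, although the study does, and the p-values measure only the spread among these samples. Each of the 10 genes passed the filter on low counts and was among the 19427 genes tested. In bulk RNA, fewer cells of a type and less RNA per cell cannot be told apart.

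None of the 10 genes passed an adjusted p under 0.05 in edgeR's quasi-likelihood test, and the share of all tested genes that did so was 0.0%. Arg1 was the only member with an unadjusted p under 0.05, which is 10.0% of the members beside 7.61% of all genes (1478 genes). DESeq2 gave 244 genes with an adjusted p under 0.05 on the same 5 samples, none of them a member, and 846 on the 6 libraries, of which Arg1 was 1. Slc7a1 was higher in every DMHCA sample than in any control, as were 13.8% of all genes, and Sat1 was lower in every DMHCA sample, as were 12.2% of all genes. The DMHCA mean was higher for 4 members and lower for 6. The median fitted log2 fold change (DMHCA minus control) was -0.08 over the members and -0.03 over all genes.

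**Figure D1:**
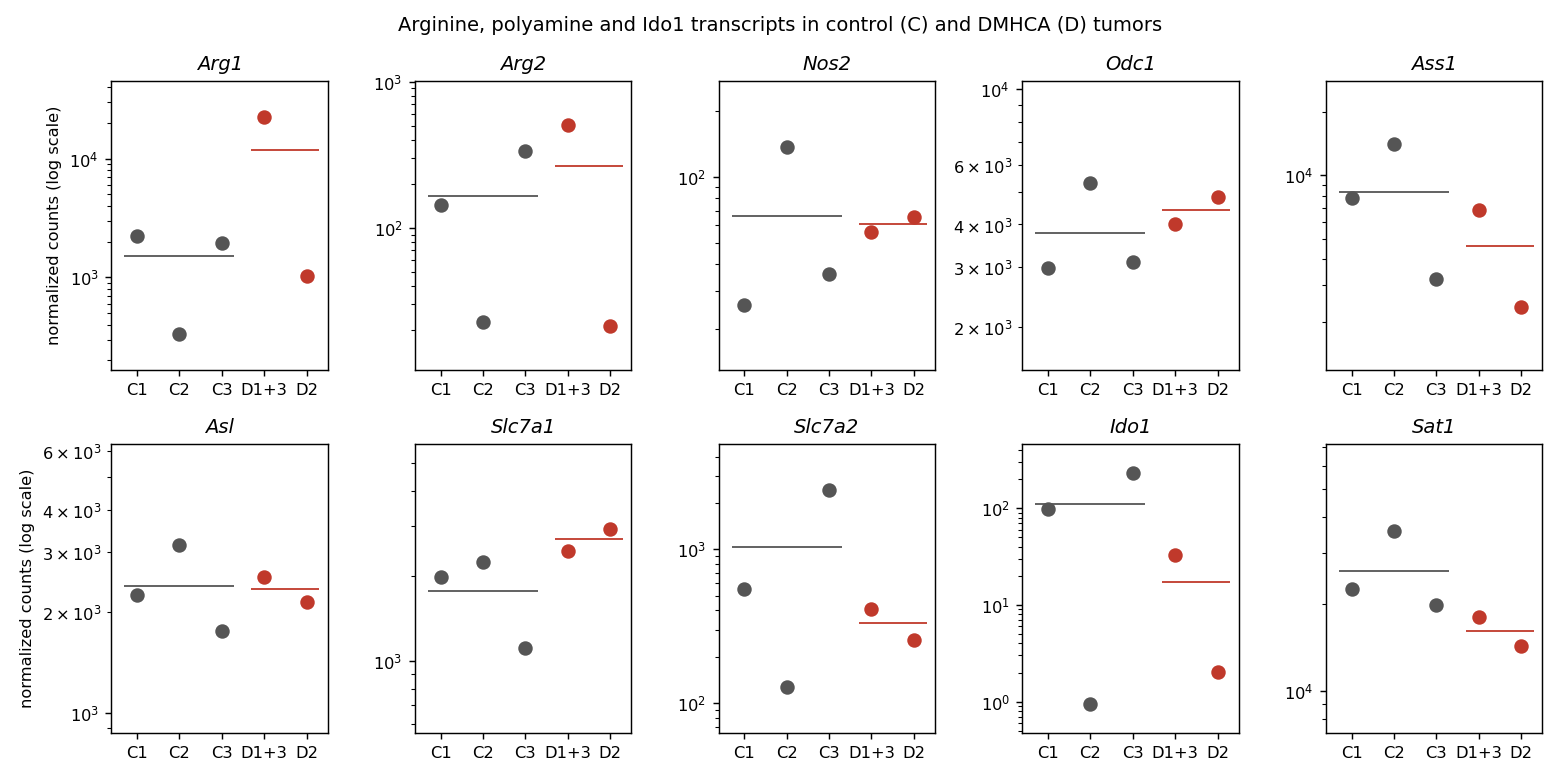
Normalized counts (log scale) of the 10 genes in control samples (C1 to C3, grey) and DMHCA samples (D1+3 and D2, red). Points are samples and lines are group means. DMHCA samples lie above all controls for Slc7a1 and below all controls for Sat1, while Arg1 at 22496 in D1+3 stands far above the other 4 samples.

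By TPM, which allows levels to be compared between genes, the members covered a wide range in the controls. Sat1 was the most abundant, at 604 ± 106 TPM (SD, n = 3), followed by Ass1 at 122 ± 65.2. Odc1 at 44.2 ± 7.11, Asl at 34.0 ± 6.10 and Arg1 at 29.2 ± 21.5 came next. Odc1 was above Asl in each of the 3 controls, and Arg1 could not be told from either within its own spread. Slc7a1 at 5.86 ± 1.71 TPM, Slc7a2 at 3.33 ± 3.90, Arg2 at 3.25 ± 3.04 and Ido1 at 1.96 ± 2.01 could not be separated by their spread either. Nos2 had the lowest mean, 0.35 ± 0.27 TPM, which lay within the spread of Ido1. The most variable members were Ido1, Arg1 and Arg2, whose highest and lowest samples differed by 245-fold, 67.9-fold and 23.7-fold in normalized counts, whereas Odc1 and Asl varied by 1.78-fold and 1.80-fold.

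Arginase 1 (Arg1, chr10:24915221-24927484), the cytosolic arginase of liver and of myeloid cells, had 2244, 331 and 1937 normalized counts in controls 1 to 3. It had 22496 in DMHCA 1+3 and 1027 in DMHCA 2. The high value came from 1 sample, and DMHCA 2 lay within the range of the controls. The group means were 1504 ± 1027 (SD, n = 3) and 11761 ± 15181 (n = 2), and the fitted log2 fold change was 2.97 (SE 1.22, edgeR adjusted p = 0.644). With DMHCA 1+3 left out the log2 fold change was -0.56, and with DMHCA 2 left out it was 3.94. Its unadjusted p was no longer under 0.05 with any 1 control or DMHCA library 3 left out, with a minimum count of 50, with robust dispersions or by limma on TPM. In DMHCA libraries 1 and 3 the separate TPM values of Arg1 were 431 and 460, which count as 1 sample and give no second measurement.

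The genes whose profile over the 5 samples was closest to that of Arg1, by the root mean square difference of centred log2 normalized counts among 11779 genes, were Car6 (0.462), Foxred2 (0.643), Apoc1 (0.684), Spdef (0.691) and B4galnt4 (0.729). Car6, a secreted carbonic anhydrase, had 8396, 735 and 2712 normalized counts in the controls, 61955 in DMHCA 1+3 and 2405 in DMHCA 2. Apoc1, an apolipoprotein, had 1259, 233 and 3303 in the controls, 15716 in DMHCA 1+3 and 1724 in DMHCA 2. Each was thus highest in DMHCA 1+3 and lowest in control 2, the pattern for which they were chosen. The summed TPM of the 8 general macrophage markers was 1136 in DMHCA 1+3, within the control range of 1077 to 2460. The markers of alternatively activated macrophages summed to 105 TPM there, beside 70.6 to 345 in the controls, and the 4 liver markers to 0.66 TPM, beside 1.39 to 5.09. The part of these cells in the Arg1 level was not tested.

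Arginase 2 (Arg2, chr12:79130777-79156301), the mitochondrial arginase, had 142, 22.8 and 333 normalized counts in the controls, 504 in DMHCA 1+3 and 21.3 in DMHCA 2. The highest and the lowest sample were both DMHCA samples. The means were 166 ± 157 and 263 ± 342, and the log2 fold change of 0.66 (SE 1.36, adjusted p = 0.898) became -2.96 with DMHCA 1+3 left out, a value that rests on 21 expected counts in DMHCA 2. Exons of Arg2 overlap those of Vti1b and Gm48780 on the opposite strand, and it is not given in the sources used here whether strand was used in counting. Vti1b had 5051, 7210 and 4346 normalized counts in the controls, 3356 in DMHCA 1+3 and 4763 in DMHCA 2, an order among samples that differed from that of Arg2. Arg1 supplied 85.0% to 93.9% of the summed arginase TPM in the controls and 97.8% and 97.9% in the DMHCA samples.

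Inducible nitric oxide synthase (Nos2, chr11:78920787-78960254), which makes nitric oxide from arginine in activated myeloid cells, was low throughout, with 26.0, 138 and 35.7 normalized counts in the controls, 55.7 in DMHCA 1+3 and 65.8 in DMHCA 2. Both DMHCA samples lay between the controls. The means were 66.4 ± 61.8 and 60.8 ± 7.12, with a log2 fold change of -0.13 (SE 0.82, adjusted p = 0.969) that turned to 0.97 without control 2. The ratio of Arg1 to Nos2 TPM was 272, 7.58 and 165 in the controls and 1172 and 47.6 in DMHCA 1+3 and DMHCA 2. The ratio was lowest in control 2, where Nos2 was highest and Arg1 lowest. The closest profiles to Nos2 were those of Gm28661 (root mean square difference 0.202), Cks2 (0.205), Haus8 (0.229), Mxd3 (0.265) and Epm2a (0.277). Cks2, a subunit of cyclin-dependent kinase complexes, had 974, 3279 and 1155 normalized counts in the controls, 1601 in DMHCA 1+3 and 1825 in DMHCA 2.

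Ass1 (chr2:31470207-31520672), argininosuccinate synthase, had 7826, 13975 and 3202 normalized counts in the controls, 6828 in DMHCA 1+3 and 2375 in DMHCA 2. Only DMHCA 2 lay below all controls. The means were 8334 ± 5404 and 4601 ± 3148 (log2 fold change -0.86, SE 0.70, adjusted p = 0.738), and the log2 fold change moved to -0.25 without DMHCA 2, -0.26 without control 2 and -1.83 without DMHCA 1+3. Asl (chr5:130011258-130029247), the lyase of the next step, had 2237, 3144 and 1746 in the controls, 2540 in DMHCA 1+3 and 2140 in DMHCA 2. The Asl samples of the 2 groups overlapped fully, with means of 2376 ± 709 and 2340 ± 282 and a log2 fold change of -0.02 (SE 0.32, adjusted p = 0.987). The TPM ratio of Ass1 to Asl was 3.81, 4.60 and 1.89 in the controls, 2.77 in DMHCA 1+3 and 1.12 in DMHCA 2.

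Slc7a1 (chr5:148327410-148399904), the broadly expressed cationic amino acid transporter, had 1976, 2234 and 1117 normalized counts in the controls, 2456 in DMHCA 1+3 and 2930 in DMHCA 2. The groups did not overlap. The means were 1775 ± 585 and 2693 ± 335, and the log2 fold change was 0.60 (SE 0.34, adjusted p = 0.667). Without control 3, the lowest sample, it was 0.35. Slc7a2 (chr8:40862396-40922308), the related transporter that macrophages use for arginine uptake, had 554, 128 and 2424 normalized counts in the controls, 407 in DMHCA 1+3 and 258 in DMHCA 2. Control 3 was far above the rest, and both DMHCA samples lay between controls 1 and 2. The means were 1035 ± 1221 and 332 ± 105, with a log2 fold change of -1.64 (SE 1.11, adjusted p = 0.697) that was -0.04 without control 3. Slc7a1 made up 79.3%, 95.1% and 34.1% of the summed TPM of the pair in the controls and 87.1% and 91.7% in the DMHCA samples. Slc7a2 exons overlap those of Gm26584 on the opposite strand.

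Odc1 (chr12:17544794-17551505), ornithine decarboxylase, the entry enzyme of polyamine synthesis, had 2979, 5289 and 3097 normalized counts in the controls, 4025 in DMHCA 1+3 and 4823 in DMHCA 2. Control 2 was highest and the DMHCA samples lay within the control range. The means were 3788 ± 1301 and 4424 ± 564 (log2 fold change 0.22, SE 0.33, adjusted p = 0.847). On the TPM scale the same gene had 40.2, 52.4 and 39.9 in the controls and 52.8 and 69.9 in DMHCA 1+3 and DMHCA 2, so that the groups did not overlap on that scale. The margin was narrow, with 52.75 in DMHCA 1+3 against 52.4 in control 2. By limma on log2(TPM + 1) the median log2 fold change over all genes was 0.16. The expected count of Odc1 was not a whole number in 6 of 6 libraries, because RSEM divides ambiguous reads between genes, and its level is uncertain to that extent, as are those of Arg2 and Slc7a2 (5 of 6 libraries each).

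Sat1 (chrX:155213132-155216449), the spermidine/spermine acetyltransferase that starts polyamine breakdown and export, had 22552, 35893 and 19927 normalized counts in the controls, 18060 in DMHCA 1+3 and 14347 in DMHCA 2. Both DMHCA samples were below all controls. The means were 26124 ± 8562 and 16203 ± 2625 (log2 fold change -0.69, SE 0.37, adjusted p = 0.654), and leaving out control 2 gave -0.39. The TPM ratio of Sat1 to Odc1 was 14.9, 13.6 and 12.5 in the controls and 8.84 and 5.80 in DMHCA 1+3 and DMHCA 2, with no overlap between the groups. Odc1 and Sat1, the entry points to polyamine synthesis and breakdown, were on opposite sides in the mean, and the ratio was not tested.

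**Figure D2:**
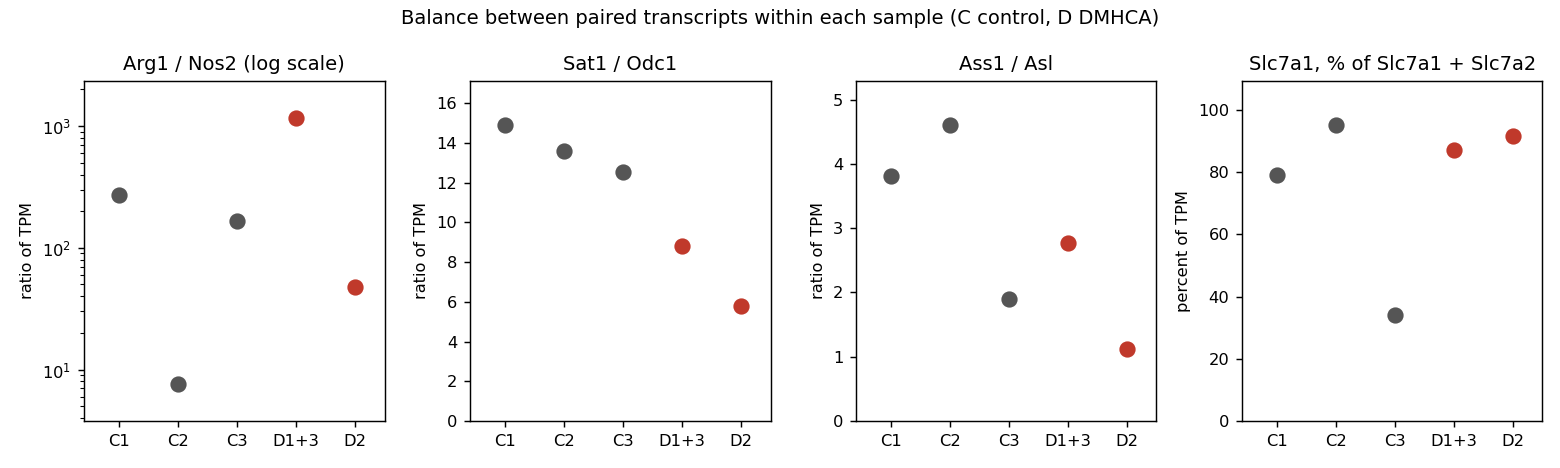
Ratios of TPM values within each sample for controls (C1 to C3, grey) and DMHCA samples (D1+3 and D2, red), with the Arg1 to Nos2 ratio on a log axis and Slc7a1 as a percent of Slc7a1 plus Slc7a2. The Sat1 to Odc1 ratio is 12.5 or more in the controls and 8.84 or less in the DMHCA samples, and the other 3 measures overlap.

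For Slc7a1 and Sat1, the members whose groups did not overlap, the 250 bases before the annotated start are shown from RefSeq (GRCm38.p6), 5′ to 3′ on the minus strand on which each gene lies. The Slc7a1 stretch is chr5:148399905-148400154 and the Sat1 stretch is chrX:155216450-155216699. Capitals mark a match to one of the motifs searched.
Slc7a1: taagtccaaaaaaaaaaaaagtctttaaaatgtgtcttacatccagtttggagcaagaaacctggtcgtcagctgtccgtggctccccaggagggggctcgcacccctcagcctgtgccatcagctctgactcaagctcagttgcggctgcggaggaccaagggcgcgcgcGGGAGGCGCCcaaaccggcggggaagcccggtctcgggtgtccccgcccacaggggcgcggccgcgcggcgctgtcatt
Sat1: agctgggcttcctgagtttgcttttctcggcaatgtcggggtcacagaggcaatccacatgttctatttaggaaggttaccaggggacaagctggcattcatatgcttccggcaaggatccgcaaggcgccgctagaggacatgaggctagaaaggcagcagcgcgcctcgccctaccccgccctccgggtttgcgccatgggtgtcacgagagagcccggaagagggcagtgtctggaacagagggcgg
The motifs searched on both strands, with the share of all 32851 promoters of that length that hold each, were the TATA box TATAAA (12.4%), the E-box CACGTG (6.02%), an ATF4-type site TGATGNAA (3.45%), a C/EBP-type site TTGCNNAA (9.56%), an NF-kB-type site GGGANNNNCC (17.6%) and an LXR-type direct repeat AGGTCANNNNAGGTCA (0.0152%). The Slc7a1 stretch held 1 match, GGGAGGCGCC at -79 from the start, and the Sat1 stretch held none. Promoters were matched for 4 of the 10 members. Of the others matched, the Ass1 promoter held CACGTG at -36 and GGGAGGGGCC at -152, a further Slc7a1 promoter held TATAAA at -28, and the Odc1 promoter held no match.

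Ido1 (chr8:24584136-24597009), indoleamine dioxygenase, which opens the kynurenine route of tryptophan breakdown, had 97.2, 0.949 and 233 normalized counts in the controls, 32.6 in DMHCA 1+3 and 2.03 in DMHCA 2. In expected counts, control 2 had 1 and DMHCA 2 had 2, so these values carry little precision. Controls 1 and 3 were above both DMHCA samples, and control 2 was below them. The means were 110 ± 116 and 17.3 ± 21.6 (log2 fold change -2.62, SE 1.84, adjusted p = 0.707). The log2 fold change was -5.69 without DMHCA 1+3, -1.45 without control 3 and -1.70 without DMHCA 2. The closest profiles were those of Lgr6 (root mean square difference 0.568), Pinc (0.753), Krt14 (0.840), Btn1a1 (0.862) and Ccl21a (0.884), of which Krt14 is a basal epithelial keratin and Btn1a1 a milk fat protein. Btn1a1 had 3919, 60.7 and 27609 normalized counts in the controls, 4692 in DMHCA 1+3 and 144 in DMHCA 2. It was chosen for its small difference from the profile of Ido1, although DMHCA 1+3 was above control 1 for Btn1a1 and below it for Ido1.

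**Figure D3:**
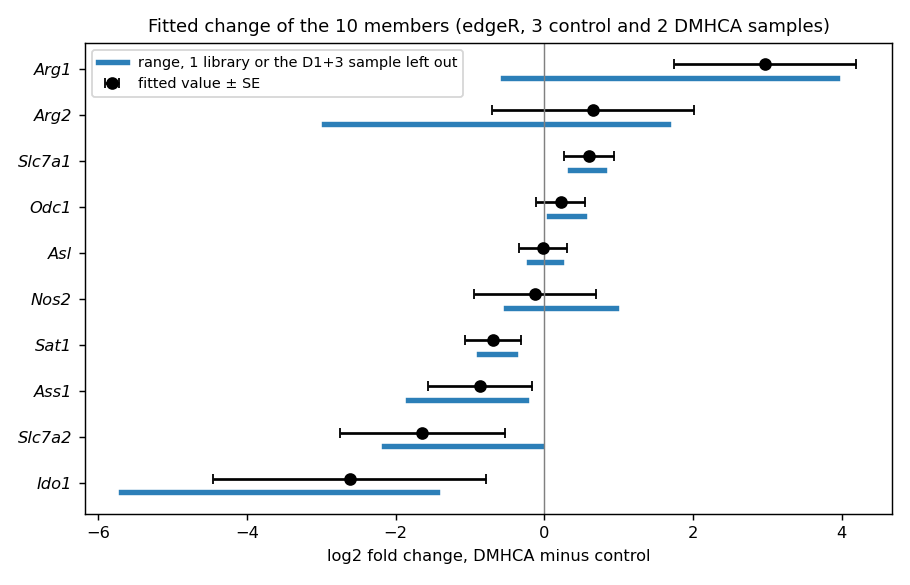
Fitted log2 fold change (DMHCA minus control) of each of the 10 genes with its standard error (black), and the range when 1 library, or the D1+3 sample, was left out (blue). The range of Arg1 runs from -0.56 to 3.94 and that of Ido1 from -5.69 to -1.45. The ranges of Arg1, Arg2, Nos2 and Asl cross zero, and those of Slc7a1 (0.35 to 0.80) and Sat1 (-0.88 to -0.39) could hardly do so, since their groups do not overlap.

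The other genes of the pathway were read from 6 lists, of which 65 of 75 genes were tested. None passed an adjusted p under 0.05, and 13 (20.0%, beside 7.61% of all genes) had an unadjusted p under 0.05, 5 of them higher and 8 lower with DMHCA. Their adjusted p in edgeR was 0.644 in each case. With a single library or DMHCA 1+3 left out, 2 of the 13 (Atp13a2 and Slc22a3) stayed under 0.05 throughout, of which Slc22a3 passed the filter on low counts only through the controls, and the fewest did so without DMHCA 2 or without DMHCA 1+3 (4 each). Over the 65 genes DESeq2 called 1 on the 5 samples and 12 on the 6 libraries, of which 11 were among the 13. Over all genes, 685 were higher and 793 lower at that unadjusted level. These lists share their samples with the members and give no separate evidence. They were also chosen with earlier results of these data known, so their share beside that of all genes is a description.

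In the urea cycle and ornithine list, 10 of 15 genes were tested, 2 were higher and 1 lower at an unadjusted p under 0.05, and the median log2 fold change was 0.37. The first steps of the urea cycle had almost no RNA, unlike Ass1, Asl and Arg1: Otc had 0 to 4 expected counts in any library and Cps1 had 2 in DMHCA 2 and 0 in the rest, and neither could be tested. Oat, which turns ornithine toward proline and glutamate, had 4472 ± 815 normalized counts in controls and 5552 ± 668 in DMHCA samples (log2 fold change 0.31, adjusted p = 0.746). Slc25a15, the mitochondrial ornithine carrier, had 965, 1048 and 699 in the controls and 1585 and 1542 in DMHCA 1+3 and DMHCA 2 (0.79, SE 0.30). Prodh, which starts proline breakdown, had 376, 456 and 378 in the controls and 175 and 192 with DMHCA (-1.13, SE 0.41). The ornithine carrier was thus higher, and the proline oxidase lower, in every DMHCA sample, as were 13.8% and 12.2% of all genes. Both passed only the unadjusted level.

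The nitric oxide list had 11 genes tested, with none higher and 1 lower at an unadjusted p under 0.05 and a median of -0.09. Gch1, which starts synthesis of the tetrahydrobiopterin cofactor of the nitric oxide synthases, had 947, 1461 and 1230 normalized counts in the controls and 607 and 511 in DMHCA 1+3 and DMHCA 2 (log2 fold change -1.12, SE 0.33). The groups did not overlap, and 12.2% of all genes were likewise lower in every DMHCA sample. Nos3, the endothelial synthase, had 247 ± 63.7 in controls and 250 ± 38.5 in DMHCA samples (0.02, adjusted p = 0.990). Nos1, the neuronal synthase, had 52.8 ± 51.8 and 15.3 ± 14.5 (-1.74, adjusted p = 0.683), with the groups overlapping. Of the 3 synthases, Nos3 was thus the highest in TPM, at 0.87 to 1.85 in every sample, beside 0.17 to 0.66 for Nos2 and 0.01 to 0.32 for Nos1.

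Of the arginine transport list 8 of 10 genes were tested, 1 was higher at an unadjusted p under 0.05, and the median was -0.46. That gene, Slc6a14, a transporter of neutral and cationic amino acids, had 946, 664 and 438 normalized counts in the controls, 715 in DMHCA 1+3 and 3697 in DMHCA 2. Its high value came from DMHCA 2 alone, and the log2 fold change of 1.69 (SE 0.67) was 0.10 without that sample. Slc7a7, which exports arginine, had 4301 ± 3383 in controls and 2706 ± 633 with DMHCA (-0.67, adjusted p = 0.770), and its partner subunit Slc3a2 had 11844 ± 3870 and 8465 ± 2175 (-0.48, adjusted p = 0.728). For both the groups overlapped.

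All 18 genes of the polyamine list were tested, with 2 higher and 2 lower at an unadjusted p under 0.05 and a median of -0.08. Smox, which oxidizes spermine, had 5830, 10713 and 6263 normalized counts in the controls and 3193 and 3886 in DMHCA 1+3 and DMHCA 2 (log2 fold change -1.10, SE 0.36). Paox, which oxidizes the acetylated polyamines that Sat1 makes, had 790, 695 and 711 in the controls and 1503 and 1147 with DMHCA (0.86, SE 0.29). The oxidases therefore lay on opposite sides, and neither overlapped between the groups. The same held for 13.8% (DMHCA higher) and 12.2% (DMHCA lower) of all genes. Atp13a2, a lysosomal polyamine exporter, had 2781, 1767 and 2820 in the controls and 10896 and 4838 with DMHCA (1.68, SE 0.41), and its log2 fold change was 0.97 without DMHCA 1+3 and 2.19 without DMHCA 2. Slc22a3, an organic cation transporter, had 44, 18 and 126 expected counts in the controls and 0, 1 and 3 in DMHCA libraries 1 to 3, and it is the gene that DESeq2 called on the 5 samples (adjusted p = 0.00145, beside 0.644 in edgeR). Its counts reached the minimum of 10 only in the controls, so that it entered the edgeR test only through the group where it was high, and its calls are given as a description. Srm, the spermidine synthase, had 1797 ± 409 in controls and 3070 ± 1284 with DMHCA (0.77, adjusted p = 0.644). Sms, Amd1, Azin1 and Oaz1, which make spermine, decarboxylate S-adenosylmethionine and regulate ornithine decarboxylase, had log2 fold changes of 0.21, -0.32, -0.01 and -0.26 with adjusted p from 0.749 to 0.992.

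The tryptophan list had 11 of 13 genes tested, with none higher and 4 lower at an unadjusted p under 0.05 and a median of -1.35, the lowest of the 6 pathway lists. Il4i1, a secreted amino acid oxidase of myeloid and B cells, had 130, 36.1 and 1539 normalized counts in the controls and 31.6 and 34.4 in DMHCA 1+3 and DMHCA 2 (log2 fold change -4.10, SE 1.65). Its size rested on control 3, and without that library it was -1.33. Haao, an enzyme of quinolinate synthesis, had 82.8, 46.5 and 404 in the controls and 34.2 and 24.3 with DMHCA (-2.59, SE 1.06), and -1.14 without control 3. Kynu, the kynureninase, had 65.5, 41.8 and 175 in the controls and 26.6 and 14.2 with DMHCA (-2.19, SE 0.83), and -1.38 without control 3. Without that library none of these 3 genes kept an unadjusted p under 0.05. Afmid, the formamidase that releases kynurenine, had 215, 325 and 284 in the controls and 115 and 100.2 with DMHCA (-1.35, SE 0.47), and the value without control 3 was -1.33. Afmid thus did not share the excess of control 3 that Il4i1, Haao and Kynu had. Kmo had 155 ± 157 and 57.7 ± 21.4 normalized counts (-1.42, adjusted p = 0.694), Tdo2 had 19.8 ± 19.5 and 6.56 ± 2.18 (-1.59, adjusted p = 0.703), and Ido2, with at most 5 expected counts in a library, was not tested. Tdo2 had 16, 3 and 38 expected counts in the controls and 6, 8 and 4 in DMHCA libraries 1 to 3. It was tested only through controls 1 and 3, where it was high, so its value and its place in the list are a description.

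**Figure D4:**
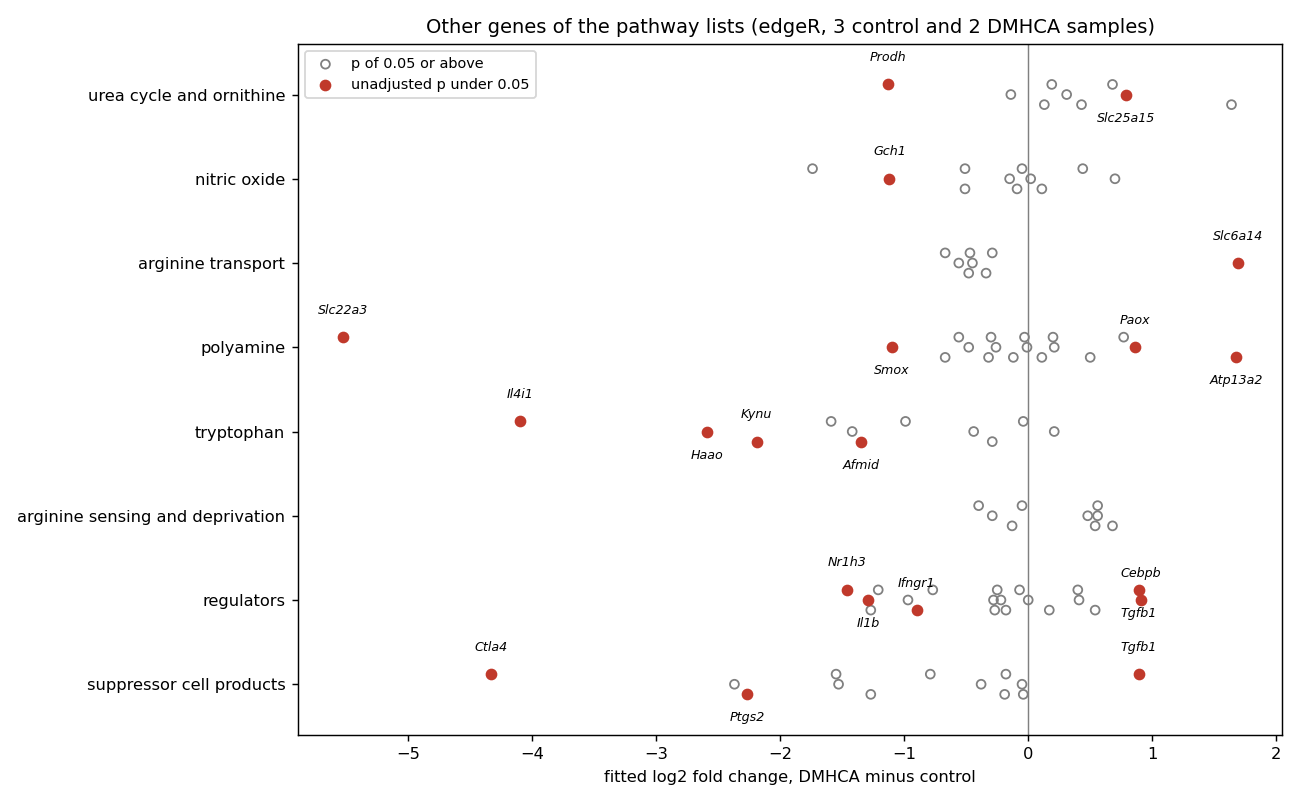
Fitted log2 fold change (DMHCA minus control, edgeR) of genes of each list, with those at an unadjusted p under 0.05 filled and named. In the tryptophan list 10 of 11 genes are below zero, beside 10099 of all 19427 genes tested. Among those 10, Tdo2 passed the filter on low counts only through controls, where it was high. The fitted value of Slc22a3 is against DMHCA libraries with 0 to 3 expected counts and is no measure of size.

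The list of arginine sensing and deprivation, which holds the amino acid response genes such as Eif2ak4, Atf4 and Asns, had 9 of 10 genes tested and none at an unadjusted p under 0.05, with a median of 0.48 and log2 fold changes from -0.40 (Castor1) to 0.68 (Sesn2). Atf4, the central transcription factor of that response, had a log2 fold change of -0.05 (adjusted p = 0.964).

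Control 3 was the sample with the most Ido1 and Slc7a2, and it also had the highest summed TPM of T and NK cell, B cell, dendritic cell and general macrophage markers. The same library was highest of the 5 samples for alternatively activated macrophage (345 TPM), fibroblast (1220), adipocyte (914) and liver (5.09) markers. The 7 T and NK cell markers summed to 14.4, 1.87 and 108 TPM in the controls, 13.6 in DMHCA 1+3 and 5.15 in DMHCA 2. The 4 B cell markers summed to 29.3, 0.94 and 251 TPM in the controls, 1.97 in DMHCA 1+3 and 1.73 in DMHCA 2. Control 3 was highest and control 2 lowest for both lists, as for Ido1 and Slc7a2. Neutrophil markers summed to 462, 65.5 and 3208 TPM in the controls and 92.6 and 250.3 with DMHCA, but Ltf, which mammary epithelium also makes, supplied 407, 34.3 and 3151 TPM of the control sums. Without Ltf the other 8 neutrophil markers summed to 55.1, 31.3 and 56.6 TPM in the controls, 11.9 in DMHCA 1+3 and 215 in DMHCA 2, so that DMHCA 2 was highest. S100a8 alone gave 199 TPM of the sum in DMHCA 2. Dendritic cell markers summed to 8.82 to 51.7 and 9.51 and 7.40, and general macrophage markers to 1077 to 2460 and 1136 and 936. At an unadjusted p under 0.05 all 4 B cell markers, 2 of 6 dendritic cell markers and 1 each of the T and NK cell, neutrophil (Ltf) and macrophage markers were lower with DMHCA, and no marker of these lists was higher. Over all 19427 genes tested, 793 were lower and 685 higher at that level, and none passed an adjusted p under 0.05. All 5 adipocyte markers were also lower, with sums of 123 to 914 TPM in the controls and 68.7 and 68.8 with DMHCA. No marker gene was at 0 in every library. The part of these cells in the values of Ido1, Slc7a2 and the tryptophan genes was not tested.

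**Figure D5:**
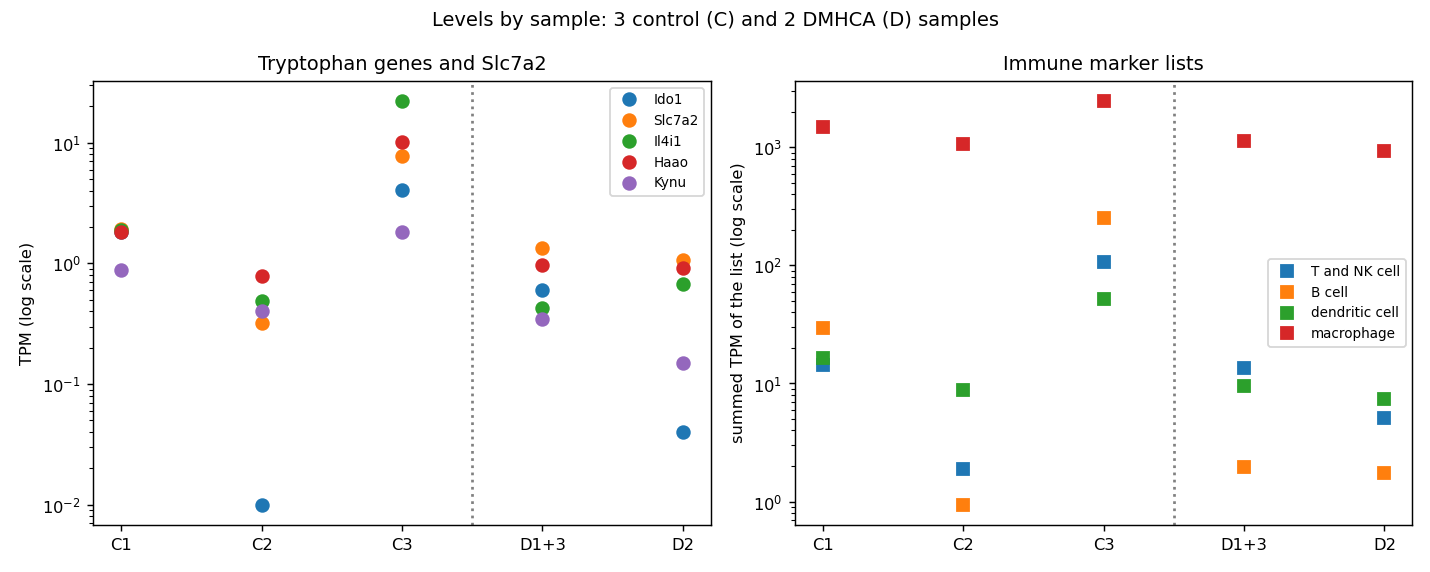
TPM of Ido1, Slc7a2, Il4i1, Haao and Kynu (left) and summed TPM of 4 immune marker lists (right) in each sample, on log axes, with a dotted line between controls (C1 to C3) and DMHCA samples (D1+3, D2). Control 3 is highest for all 5 genes and all 4 lists, with 4.03 TPM of Ido1 and 251 TPM of B cell markers. The 5 genes are a selection. Of the tryptophan list, Kyat1 and Wars (not shown) were lowest in control 3, at 20.25 and 20.21 TPM.

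The other marker lists showed what else the samples held. Fibroblast markers summed to 313 to 1220 TPM in the controls and 622 and 652 with DMHCA, and endothelial markers to 42.7 to 59.3 and 56.8 and 64.3. Epithelial markers summed to 3140 to 4029 TPM in the controls and to 4816 and 4698 with DMHCA. Skeletal muscle markers reached 452 to 777 TPM in the controls, 672 in DMHCA 1+3 and 176 in DMHCA 2, and keratinocyte markers stayed at 4.08 to 10.2 TPM in every sample. At an unadjusted p under 0.05, 1 of 5 endothelial markers was higher and 1 of the liver markers (Alb, which reached the minimum of 10 counts only in controls) lower with DMHCA, and no fibroblast, epithelial, skeletal muscle, keratinocyte or alternatively activated macrophage marker reached that level. Over all genes the share at that level was 7.61%.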

How the data were processed

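RNA of snap-frozen mammary tissue was sequenced in 3 control libraries and 3 libraries of mice given DMHCA. Per the study's methods and the submitters' processing notes, reads were checked with FastQC 0.11.9, trimmed with cutadapt 2.9 and assigned to genes by RSEM 1.3.1 with a Bowtie2 2.4.1 index of mm10. For each library the authors deposited expected counts (RSEM's estimates, which divide ambiguous reads between genes, without normalization). The authors also deposited TPM, which sum to a fixed total per library. The deposited FPKM values were not used. Strand setting is not given in the sources used here.

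Expected counts were rounded to whole numbers, and DMHCA libraries 1 and 3 were summed because edgeR's coefficient of variation for the pair, over genes averaging 100 counts or more, fell below 0.1 and was over 5 times smaller than for any other pair. In a chi-square comparison at the 0.05 level 18.1% of genes differed in that pair and 82.0% to 87.9% in the others. In R 4.3.3, edgeR 4.0.16 (filterByExpr with a minimum count of 10 and total of 15, TMM, glmQLFit and glmQLFTest, two-sided, Benjamini-Hochberg over the 19427 genes) compared 3 control with 2 DMHCA samples. Normalized counts are counts at the effective depth of an average library, and TPM of libraries 1 and 3 were averaged. Groups and replicate numbers came from the labels. The study describes separate mice.

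The named genes were the 10 members, a fixed set of pathway genes (Nos1, Nos3, Otc, Cps1, Oat, Slc7a7, Slc3a2, Azin1, Oaz1, Srm, Sms, Amd1, Smox, Paox, Ido2, Tdo2, Kmo, Kynu and Il4i1), list genes with an unadjusted p under 0.05, and the 5 genes with a mean of at least 300.0 normalized counts closest in profile to Arg1, Nos2 and Ido1. One list gene that met the rule is counted but not reported here. Atf4, Castor1, Sesn2, Nr1h2, Kyat1 and Wars were chosen after their values were seen. Members, lists and markers were chosen with earlier results of these data known. Of 55385 gene identifiers, 55144 (99.6%) matched the GENCODE annotation of GRCm38 used for positions. Alternatives were DESeq2 1.42.0 (no filter beforehand, on 5 samples and on 6 libraries), edgeR on 6 libraries with and without a replicate block, DESeq2 size factors, no filter, a minimum count of 50, robust dispersions, limma 3.58.1 on log2(TPM + 1) and log2(TPM + 0.1) for genes with a mean TPM of at least 0.5, and each library left out. The fit was tested on simulated data. With 46358654 to 63420620 counts per library, sampling error was small for all members but Ido1, Nos2 and Arg2, and so few samples limit the precision.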

Additional observations from a re-analysis of the deposited data

How the results depend on the processing

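With 3 against 2 samples, the number of genes called depended on the tool. DESeq2 called 244 genes on the 5 samples, 1 of them (Slc22a3) a pathway gene, and 846 on the 6 libraries, among them 12 pathway genes and 1 member, Arg1 (log2 fold change 3.37, adjusted p = 0.00959, beside 0.00959 to 0.959 over all alternatives for Arg1). On the 6 libraries DMHCA libraries 1 and 3, which are close to identical, count as separate samples. With no filter on low counts edgeR called 16 genes, and none with every other edgeR and limma setting.

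The median log2 fold change of the members, -0.08, was 0.12 with a replicate block, 0.22 by limma on log2(TPM + 0.1), 0.25 on log2(TPM + 1), -0.29 to 0.19 with 1 library left out (0.19 without control 2), and -0.72 with DMHCA libraries 1 and 3 left out, a setting added after the data were seen. On the TPM scales the median over all genes was 0.20 and 0.16, and Nos2 was below the minimum level. By DESeq2 the median over all genes was -0.19 and -0.20. Asl changed sign with 0.02 by DESeq2 on 6 libraries, 0.04 with the block, 0.00 on 6 libraries without it, 0.00 with no filter, 0.26 and 0.25 by limma on log2(TPM + 0.1) and log2(TPM + 1), and -0.20 to 0.23 with 1 library left out. Nos2 was 0.20 with the block and -0.51 to 0.97 with 1 library left out. Without DMHCA libraries 1 and 3, Arg1 was -0.56 and Arg2 -2.96. The cause was not tested. Of 168 values of single members over 17 alternatives, 155 kept their direction and side of the threshold, 1 passed it and 12 changed sign.

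Same-numbered libraries had correlations of deviations of -0.0468, 0.316 and 0.33. Differently numbered libraries ran from -0.363 to 0.319, so these values do not settle whether the replicate numbers pair the samples. With the replicate block 0 of 18674 genes were called and 3207 had an unadjusted p under 0.05, beside 2912 without it. Depth limits Ido1, which had 1 and 2 counts in single libraries, and Arg2, which had 24 and 21.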

Other observations

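Genes that control the members, and other products of suppressive cells, were read from a pair of further lists. Earlier results of these data were known when they were chosen, so their shares beside that of all genes are a description. Of the regulators, 20 of 23 genes were tested, with 2 higher and 3 lower at an unadjusted p under 0.05 (25.0%, beside 7.61% of all genes), none at an adjusted p under 0.05, and a median log2 fold change of -0.24. Cebpb, a transcription factor that drives arginase expression in myeloid cells, had 19292, 20839 and 17416 normalized counts in the controls and 29255 and 42672 in DMHCA 1+3 and DMHCA 2 (0.91, SE 0.31, edgeR adjusted p = 0.644). The Cebpb groups did not overlap, and its part in the Arg1 level was not tested. Tgfb1, a cytokine of suppressive and fibrotic tissue, had 3021, 2270 and 2076 in the controls and 3539 and 5592 with DMHCA (0.89, SE 0.31). Ifngr1, a chain of the interferon gamma receptor, had 3580, 3352 and 6434 in the controls and 2225 and 2540 with DMHCA (-0.90, SE 0.36, and -0.55 without control 3), and Il1b, an inflammatory cytokine, had 695, 1498 and 536 in the controls and 356 and 390 with DMHCA (-1.29, SE 0.53, and -0.72 without control 2). Nr1h3, which encodes one of the LXR proteins, had 362, 307 and 856 in the controls and 198 and 171 with DMHCA (-1.46, SE 0.59, and -0.86 without control 3). Nr1h2, which encodes the other and which the study names as the major isoform, lay on the other side. It had 5077, 3106 and 4186 in the controls and 5761 and 5095 with DMHCA (0.40, SE 0.29, adjusted p = 0.712). For these receptors and Il1b too the groups did not overlap. The same held for 13.8% (DMHCA higher) and 12.2% (DMHCA lower) of all genes.

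Of the suppressor cell products, 13 of 14 genes were tested, with 1 higher (Tgfb1) and 2 lower at an unadjusted p under 0.05 (23.1%, beside 7.61% of all genes) and a median of -0.79. Ptgs2, which makes prostaglandins, had 626, 158 and 1147 normalized counts in the controls and 163 and 104 in DMHCA 1+3 and DMHCA 2 (-2.27, SE 0.85, adjusted p = 0.644), and -1.56 without control 3. Ctla4, an inhibitory receptor of T cells, had 44.3, 4.75 and 275.9 in the controls and 8.04 and 2.03 with DMHCA (-4.33, SE 1.74, adjusted p = 0.644), and it did not pass the filter on low counts without control 1 or control 3. It was tested only through these controls, where it was high, so its place in the count above is a description. In both genes control 2 lay within the DMHCA range and control 3 was highest, as it was for the T and NK cell markers. None of the 7 genes named here for an unadjusted p under 0.05 kept it both without control 1 and without control 3.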
